A study of Rattus norvegicus with 24 samples.

Results

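The lungs of rats that inhaled cigarette smoke and then silica on top of it were compared with the lungs of rats that inhaled the same smoke and chamber air. All 14217 genes measured by a probe set with exactly 1 gene symbol entered the comparison, each through its brightest probe set, in 8 of the 24 rats of the study, chosen by the exposure codes in the sample labels. The 4 smoke and silica rats are numbered 602, 603, 604 and 605, and the 4 smoke rats 201, 203, 204 and 205. In the whole study, each of 3 chamber exposures (air, Iraqi sand or silica) was given with and without smoke. Every one of its 6 groups is represented by 4 arrays, each of 1 male rat of the outbred Sprague-Dawley strain at 17 weeks of age.

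Both groups breathed smoke nose-only, in daily sessions of 3 hours on 5 days of the week, at 0.48 mg/L of wet total particulate matter. The protocol gives a smoke period of 5 weeks, where the series text gives 6 weeks. The smoke and silica rats breathed manufactured silica at 1 mg per cubic metre with the whole body for 18 hours a day, 7 days a week, over the last 2 weeks, and the smoke rats breathed chamber air at the same times. The other groups used below are smoke and Iraqi sand (the same smoke, with sand at 1 mg per cubic metre), silica without smoke (nose-only air and the same silica) and air (air by both routes). The series text names 17 rats per group, of which 4 are analysed here, and the tissue is the right caudal lobe, a mixture of all lung cells. In such bulk tissue fewer cells of a type and less RNA per cell cannot be told apart.

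Inhaled crystalline silica is taken up by alveolar macrophages, where it damages lysosomes, sets off the NLRP3 inflammasome and releases interleukin-1, and lasting exposure is known for chronic inflammation and fibrosis. Cigarette smoke by itself draws macrophages and neutrophils into the lung and induces detoxifying and antioxidant enzymes. The comparison therefore asks what silica adds in a lung that smoke has already changed.

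Levels are given as log2 expression, where a difference of 1 is 2-fold, and differences as smoke and silica minus smoke with their standard error. Lung markers were high in every rat of both groups. The surfactant protein gene Sftpc lay between 14.83 and 14.89 in smoke and silica lungs and between 14.83 and 14.90 in smoke lungs, and the alveolar type 1 marker Ager lay between 12.95 and 13.21 in smoke and silica lungs and between 12.98 and 13.30 in smoke lungs. Rat 604 of the smoke and silica group stood apart, with 252 genes at least 2-fold off the mean of its group mates, against 27 to 172 such genes in the other 7 rats, and with the lowest mean correlation with the other arrays among the 8 (0.980, against 0.985 or more). Rat 302, which inhaled Iraqi sand without smoke and is in neither group here, had 1446 such genes and enters the spread that all comparisons share. Precision is limited by the number of arrays.

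Of the 14217 genes, 2 passed at an adjusted p under 0.05 in limma (0.0141% of the genes tested), Cped1 and Arid5b, and both rose. Cped1 encodes a protein with cadherin-like and esterase domains, known in humans from the genetics of bone density. Arid5b encodes a DNA-binding protein with an AT-rich interaction domain, which partners with the histone demethylase Phf2.

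Cped1 stood at 9.02, 8.92, 8.59 and 8.59 in smoke and silica rats 602 to 605, and at 7.79, 7.69, 7.78 and 7.52 in smoke rats 201 to 205. Every smoke and silica rat lay above every smoke rat, with a wide gap between the groups. The mean was 8.78 ± 0.22 in smoke and silica lungs and 7.69 ± 0.12 in smoke lungs (SD, n = 4 each), a rise of 1.08 ± 0.13 or 2.12-fold (limma, adjusted p = 6.19e-04). Without rat 604 the rise was 1.15 (limma, adjusted p = 0.00105).

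Arid5b stood at 8.03, 7.74, 7.94 and 7.89 in smoke and silica rats 602 to 605, and at 7.29, 7.25, 7.29 and 7.43 in smoke rats 201 to 205. Again every smoke and silica rat lay above every smoke rat. The rise was 0.59 ± 0.08 or 1.5-fold (limma, adjusted p = 0.00537), and 0.57 without rat 604 (limma, adjusted p = 0.0364). On the 7 arrays of these groups without rat 604, fitted alone, Arid5b did not pass (limma, adjusted p = 0.0913). Both genes are read by a single probe set, so no second probe set could be set beside it. Leaving out each of the 8 rats in turn from the shared fit kept both calls, with adjusted p from 0.00105 to 0.00637 for Cped1 and from 0.00399 to 0.0498 for Arid5b. On the 19 arrays with a known RNA integrity number neither call was kept, with adjusted p of 0.0862 for Cped1 and 0.510 for Arid5b, or 0.110 and 0.770 with that number as a covariate. The differences there were 1.03 and 1.06 for Cped1 and 0.53 and 0.54 for Arid5b, without and with the covariate. Over all alternatives adjusted p in limma ran from 3.08e-06 to 0.110 for Cped1. For Arid5b, which the filter on level left out, it ran from 0.00394 to 1.00 over the others. The upper end of Arid5b was a test against a 1.2-fold change.

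**Figure D1:**
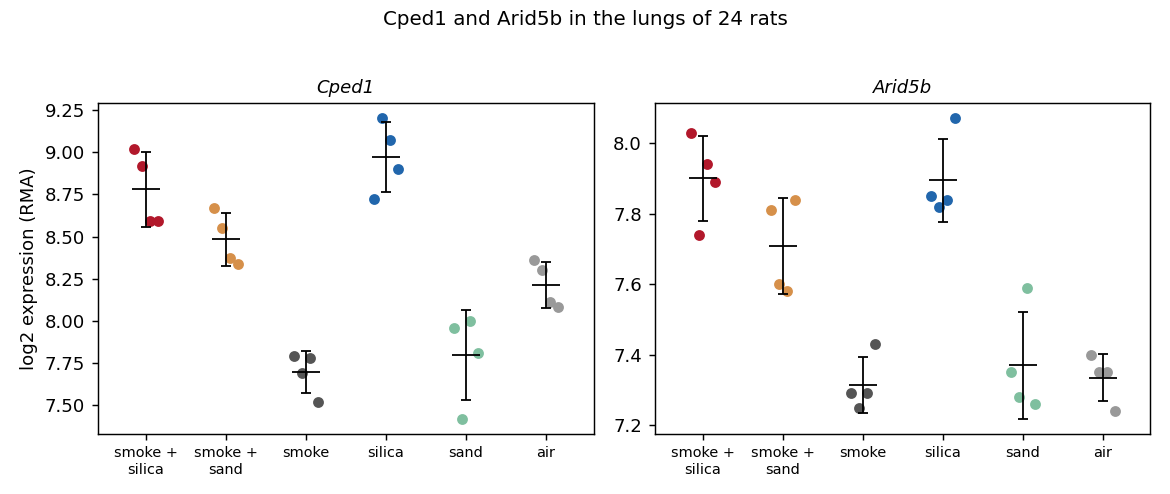
Log2 expression of Cped1 and Arid5b in each of the 24 rats (points) with the mean and SD of each group of 4 (bars), by exposure. In both genes the 4 smoke and silica rats lie above the 4 smoke rats, at 8.59 to 9.02 against 7.52 to 7.79 for Cped1 and at 7.74 to 8.03 against 7.25 to 7.43 for Arid5b.

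The same genes were read in the other exposures. Cped1 averaged 8.48 ± 0.16 in smoke and Iraqi sand lungs, 8.97 ± 0.21 in silica lungs without smoke and 8.21 ± 0.14 in air lungs (SD, n = 4 each). Arid5b averaged 7.71 ± 0.14 in smoke and Iraqi sand lungs, 7.89 ± 0.12 in silica lungs without smoke and 7.33 ± 0.07 in air lungs (SD, n = 4 each). Silica without smoke thus gave rises in both genes, of 0.76 ± 0.13 in Cped1 and of 0.56 ± 0.08 in Arid5b (limma, adjusted p = 0.0126 and 0.0067). The difference between the silica effects with and without smoke was 0.32 ± 0.18 for Cped1 and 0.03 ± 0.12 for Arid5b, and neither passed (limma, adjusted p = 1.00 for both).

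The 250 bases before the annotated start of each of the 2 genes that passed are shown, so that shared elements can be looked for. They come from RefSeq on the GRCr8 assembly, on the forward strand, Cped1 at chr4:51482247-51482496, the first of 2 entries for that gene, and Arid5b at chr20:20306464-20306713. Capitals mark matches, on both strands, to 5 elements of stress and inflammatory transcription.
Cped1: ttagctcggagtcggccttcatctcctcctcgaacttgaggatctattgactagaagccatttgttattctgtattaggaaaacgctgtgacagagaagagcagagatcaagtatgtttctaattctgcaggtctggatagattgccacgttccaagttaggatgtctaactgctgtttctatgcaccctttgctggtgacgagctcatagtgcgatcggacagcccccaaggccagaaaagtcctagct
Arid5b: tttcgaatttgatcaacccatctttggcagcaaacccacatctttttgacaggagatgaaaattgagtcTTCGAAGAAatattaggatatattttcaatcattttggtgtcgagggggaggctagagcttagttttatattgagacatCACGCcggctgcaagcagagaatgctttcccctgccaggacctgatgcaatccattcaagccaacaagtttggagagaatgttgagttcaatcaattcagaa
The elements searched were the E-box CACGTG, found in 5.59% of 33469 rat promoters of this length, the AP-1 site TGANTCA (6.34%), the antioxidant response element TGACNNNGC (10.1%), the aryl hydrocarbon receptor core GCGTG (25.9%) and the STAT site TTCNNNGAA (7.67%). The Cped1 window holds none of these letters. The Arid5b window holds the STAT letters from base -181 and, on the reverse strand, the aryl hydrocarbon receptor core from base -102, counted from the start, and no element is found in both.

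The next genes by p among those whose groups did not overlap did not pass. Groups did not overlap in 610 genes with smoke and silica higher (4.29% of those tested) and in 788 with smoke and silica lower (5.54%). Before adjustment 1179 genes had p under 0.05, 523 of them higher and 656 lower in smoke and silica lungs. The genes that follow are those with the smallest p in each direction. Groups without overlap were required of them, so that separation is not a result. Their values are descriptions where no call is named.

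Nfix, a transcription factor of the nuclear factor I family, stood at 8.30, 8.40, 8.53 and 8.29 in smoke and silica rats 602 to 605, and at 7.72, 7.62, 7.86 and 7.66 in smoke rats 201 to 205. Its groups were well apart, by 0.66 ± 0.14 (limma, adjusted p = 0.141), and its dimmer probe set differed by 0.20. Rab27b, a small GTPase of secretory vesicle release, stood at 6.35, 6.60, 6.45 and 6.62 in smoke and silica rats, and at 6.07, 6.12, 5.93 and 5.89 in smoke rats, a difference of 0.50 ± 0.10 (limma, adjusted p = 0.126). The lactate transporter Slc16a1 stood at 9.02, 8.78, 9.18 and 9.15 in smoke and silica rats, and at 8.60, 8.24, 8.65 and 8.51 in smoke rats. Its difference was 0.53 ± 0.11 (limma, adjusted p = 0.126), but its second probe set went the other way, at -0.12.

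Eci3, a peroxisomal enzyme of unsaturated fatty acid breakdown, stood at 9.65, 9.61, 9.84 and 9.55 in smoke and silica rats, and at 9.25, 9.23, 9.32 and 9.34 in smoke rats. Mtx2, a subunit of mitochondrial protein import, stood at 9.72, 9.81, 9.75 and 9.66 in smoke and silica rats, and at 9.26, 9.49, 9.40 and 9.39 in smoke rats. The differences were 0.38 ± 0.08 and 0.35 ± 0.08 (limma, adjusted p = 0.141 for both). The calmodulin regulator Pcp4 differed by 0.30 ± 0.06, Fam185a by 0.59 ± 0.13 and the BTB domain gene Kctd4 by 0.56 ± 0.12 (limma, adjusted p = 0.141 for each). The groups of Kctd4 were barely apart, with rat 605 at 5.39 and smoke rat 201 at 5.38.

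Among the lower genes Rapgef3 came closest to passing. It encodes Epac1, the exchange factor through which cyclic AMP activates Rap GTPases and which is known for tightening the endothelial barrier. Rapgef3 stood at 7.84, 8.07, 7.64 and 7.96 in smoke and silica rats 602 to 605, and at 8.40, 8.42, 8.52 and 8.68 in smoke rats 201 to 205. The difference was -0.63 ± 0.11 (limma, adjusted p = 0.0582). Without rat 604 it was -0.55 (limma, adjusted p = 0.266). Silica without smoke gave -0.05 ± 0.11 in this gene and sand under smoke -0.19 ± 0.11.

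Hyal2, a cell surface hyaluronidase, stood at 9.92, 9.83, 9.54 and 10.05 in smoke and silica rats, and at 10.69, 10.50, 10.82 and 10.40 in smoke rats, a difference of -0.77 ± 0.16 (limma, adjusted p = 0.141). Klf15, a Krüppel-like factor that glucocorticoids are known to induce, stood at 9.10, 9.27, 9.02 and 9.35 in smoke and silica rats, and at 10.20, 9.67, 9.90 and 9.95 in smoke rats. It differed by -0.75 ± 0.16 (limma, adjusted p = 0.141), with one further probe set at -0.84 and one at -0.01. The phosphatase Phospho1, known for matrix mineralization, differed by -0.63 ± 0.12, the focal adhesion adaptor Sorbs3 by -0.42 ± 0.08 and the disulfide isomerase Pdia2 by -0.48 ± 0.09 (limma, adjusted p = 0.126 for each). The choice of these 3 genes required groups that do not overlap. The further probe sets of Sorbs3 stood at -0.20 and -0.08.

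Smaller differences were those of the ubiquitin ligase Rnf123 at -0.31 ± 0.07, the integrin-binding protein Nisch at -0.26 ± 0.06 and the photoreceptor gene Rd3 at -0.38 ± 0.09 (limma, adjusted p = 0.200 for each). The probe sets of Rnf123 disagreed, the other 2 standing at 0.14 and -0.07. Rd3 lay at a low level, with a mean of 4.46 in smoke and silica lungs and 4.84 in smoke lungs. Its dimmer probe set differed by -0.19. Myl1, a myosin light chain of striated muscle, differed by -0.40 ± 0.09 (limma, adjusted p = 0.141) at a low level, with a mean of 4.27 ± 0.09 in smoke and silica lungs and 4.67 ± 0.18 in smoke lungs (SD, n = 4 each). Of 26 heart and striated muscle markers 0 passed in limma and 22 lay below 0, and their mean overlapped between the groups, lying between 5.72 and 6.25 in smoke and silica rats and between 5.79 and 6.95 in smoke rats, highest in rats 203 and 204. Their part in the value of Myl1 was not tested.

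**Figure D2:**
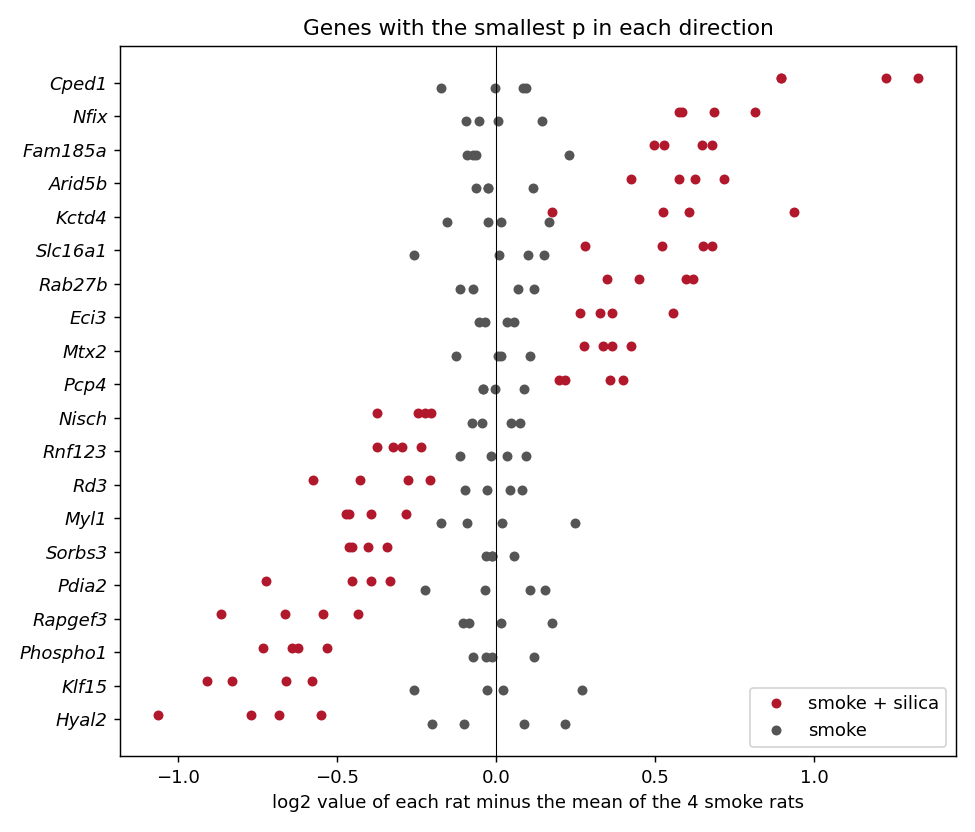
Log2 value of each rat minus the mean of the 4 smoke rats, for the 10 genes with the smallest p in each direction among genes whose groups did not overlap (red, smoke and silica; grey, smoke; genes ordered by their difference). The red and grey points of each gene are apart, by the least in Kctd4, and the differences run from 1.08 in Cped1 to -0.77 in Hyal2.

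How many genes passed differed between settings, and the cause of a changed count was not tested. Without rat 302 in the shared spread, whose median residual standard deviation was then 0.121 against 0.153 with it, 66 genes passed (0.464% of those tested), 34 higher (0.239%) and 32 lower (0.225%), and 19 of the 20 leading genes were among them, all but Rd3. In that setting Rapgef3 had an adjusted p of 0.00637 and Nfix of 0.0128. With array quality weights 342 genes passed (2.41%), 142 higher (0.999%) and 200 lower (1.41%), including all 20. With the 8 arrays of these groups alone 9 passed, and without rat 604 in the shared fit 2 passed, Cped1 and Arid5b. Without rats 302 and 604 together 10 passed, 8 higher and 2 lower.

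Endothelial genes had more members lower without overlap than any other of the 42 lists read. Of 29 measured markers 0 passed in limma and 21 lay below 0. The groups did not overlap in 10 with smoke and silica lower (34.5%, against 5.54% of all genes). They did not overlap in 1 with it higher (3.45%, against 4.29%). The median was -0.21, against -0.01 over all genes. The secreted angiogenic factor Egfl7 stood at 10.86, 10.73, 11.04 and 10.95 in smoke and silica rats 602 to 605, and at 11.46, 11.29, 11.37 and 11.31 in smoke rats 201 to 205, a difference of -0.46 ± 0.12 (limma, adjusted p = 0.221). The tight junction claudin Cldn5 stood at 12.11, 11.98, 11.37 and 12.08 in smoke and silica rats, and at 12.28, 12.41, 12.40 and 12.42 in smoke rats, a difference of -0.49 ± 0.15.

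Rat 604 was the lowest of its group in 19 of the 29 endothelial markers. Without it the median was -0.09, with 10 members lower and 3 higher without overlap, against 8.6% lower and 5.84% higher over all genes. Ramp2, the adrenomedullin receptor partner, shows this, with 12.41, 12.19, 11.34 and 12.45 in smoke and silica rats, and 12.59, 12.60, 12.62 and 12.69 in smoke rats. Its difference of -0.53 ± 0.17 was -0.27 without rat 604. Other members without overlap, chosen after their values were seen, were the endothelial nitric oxide synthase Nos3 at -0.77, the TGF-beta coreceptor Eng at -0.64, the transcription factor Sox18 at -0.60 and the receptor kinase Acvrl1 at -0.41, and the adhesion molecule Pecam1 was the one higher, at 0.21. The smallest adjusted p of the list was that of Egfl7.

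Krüppel-like factors, zinc finger transcription factors of which Klf2 and Klf4 are known to keep endothelium quiescent, leaned the same way. Of 14 measured genes 0 passed in limma, 11 lay below 0, and groups did not overlap in 5 lower (Klf15, Klf3, Klf10, Klf4 and Klf16; 35.7%, against 5.54% of all genes) and 1 higher (Klf13; 4.29% of all genes), with a median of -0.21. Klf3 stood at 10.15, 10.18, 10.06 and 10.31 in smoke and silica rats, and at 10.63, 10.46, 10.58 and 10.49 in smoke rats, a difference of -0.36 ± 0.10 (limma, adjusted p = 0.260). Klf13 stood at 8.41, 8.11, 8.06 and 8.18 in smoke and silica rats, and at 7.99, 7.64, 7.60 and 7.58 in smoke rats, higher by 0.49 ± 0.19 (limma, adjusted p = 0.493). Klf2 and Klf4 differed by -0.33 and -0.26. With each rat left out the median of this list lay between -0.24 and -0.16. The list shares Klf2 and Klf4 with the endothelial markers, and Klf4 was lower without overlap in both. It is therefore not a separate reading from them.

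Immediate early transcription factors, which cells switch on within minutes of a stimulus, lay lower. This list shares Klf10 and Klf4 with the Krüppel-like factors, and Klf4 also with the endothelial markers, so it is not a separate reading from them. Of 28 measured 0 passed in limma, 23 lay below 0 and 4 were lower without overlap (Klf10, Klf4, Srf and Ier5; 14.3%, against 5.54% of all genes), with a median of -0.20. Srf, the serum response factor, stood at 9.92, 9.94, 9.96 and 9.94 in smoke and silica rats, and at 10.18, 10.13, 10.15 and 10.26 in smoke rats. The AP-1 subunit Junb stood at 9.07, 9.27, 8.95 and 9.14 in smoke and silica rats, and at 10.63, 9.26, 9.32 and 9.44 in smoke rats, a difference of -0.56 ± 0.21 with smoke rat 201 far above the other 7 rats. That rat was the highest smoke rat in 17 of the 28 genes, and without it the median was -0.08.

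Genes of macrophages, the cells known to take up the particles, lay slightly higher on the median. Of 26 measured markers 0 passed in limma and 19 lay above 0, with a median of 0.16. Only the fatty acid transporter and scavenger receptor Cd36, at 0.34, was higher without overlap (3.85%, against 4.29% of all genes). Without smoke rat 201 the median was 0.23 with 8 higher without overlap (against 6.39% of all genes), and without smoke rat 203 it was 0.08. Plin2, the coat protein of lipid droplets, stood at 11.48, 11.45, 11.71 and 11.77 in smoke and silica rats, and at 11.47, 10.98, 11.03 and 11.08 in smoke rats. Smoke rat 201 lay among the smoke and silica rats, and the difference was 0.46 ± 0.11 (limma, adjusted p = 0.200). The integrin Itgax stood at 9.19, 10.08, 10.18 and 10.19 in smoke and silica rats, and at 9.58, 8.75, 9.41 and 9.67 in smoke rats, with rat 602 inside the range of the smoke rats, a difference of 0.56 ± 0.22.

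The list mean lay between 10.31 and 10.80 in smoke and silica rats and between 10.12 and 10.52 in smoke rats, highest in rats 604 and 201. The common phagocyte markers Cd68, Gpnmb, Lgals3 and Ctsd stood at 0.22, 0.14, -0.01 and -0.01, and the apolipoprotein Apoe at -0.44 ± 0.20. Spp1, the matrix protein osteopontin, stood at 8.24, 9.08, 11.86 and 9.45 in smoke and silica rats, and at 8.84, 8.12, 6.85 and 7.97 in smoke rats. Its difference of 1.71 ± 0.86 was the largest positive one among all genes and did not pass (limma, adjusted p = 0.613), and it was 0.98 without rat 604. The elastase Mmp12 stood at 0.70 ± 0.48.

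Lysosomal genes and genes of lipid-laden macrophages gave small values. Of 27 lysosomal genes 0 passed in limma, 4 were higher without overlap and 2 lower (against 4.29% and 5.54% of all genes), with a median of 0.06. Without rat 604 the median was 0.00 with 14 above 0, in place of 17. Without smoke rat 201 it was 0.10 with 9 higher without overlap (against 6.39% of all genes). The acid lipase Lipa, which frees cholesterol from engulfed lipid, stood at 10.86, 10.69, 10.79 and 10.93 in smoke and silica rats, and at 10.66, 10.31, 10.42 and 10.62 in smoke rats, a difference of 0.32 ± 0.11 (limma, adjusted p = 0.411). Its groups were apart by a narrow gap. The peptidase Tpp1 differed by 0.13 ± 0.06, the membrane protein Lamp2 by 0.28 and the ceramidase Asah1 by 0.18, and the lower pair was Lamp1 at -0.12 and the calcium channel Mcoln1 at -0.11. Of 21 foam cell and lipid handling genes 0 passed in limma and 14 lay above 0. Higher without overlap were 2, Lipa and Cd36 (9.52%, against 4.29% of all genes). Of 18 scavenger and particle-binding receptors 0 passed in limma and 13 lay above 0, with a median of 0.07. Without rat 604 9 lay above 0 and the median was 0.00, and without smoke rat 201 it was 0.16. In this list the Fc receptors Fcgr3a and Fcgr1a stood at 0.48 ± 0.19 and 0.39 ± 0.16 and the oxidized lipoprotein receptor Olr1 at 0.48 ± 0.31.

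Neutrophil markers were lower on the median, and 1 smoke rat carried much of it. Of 16 measured 0 passed in limma, 13 lay below 0 and none was without overlap in either direction, with a median of -0.27. The list mean was 7.60, 7.78, 7.92 and 7.45 in smoke and silica rats 602 to 605, and 8.92, 7.64, 7.70 and 7.70 in smoke rats 201, 203, 204 and 205. Rat 201 stood above the other 7 rats, and without it the median was -0.04. The decoy interleukin-1 receptor Il1r2 stood at 7.09, 7.79, 8.12 and 6.03 in smoke and silica rats, and at 10.47, 7.61, 7.67 and 7.34 in smoke rats. The calgranulin S100a9 stood at 11.34, 11.90, 12.39 and 10.39 in smoke and silica rats, and at 13.31, 11.42, 11.61 and 11.62 in smoke rats, a difference of -0.49 ± 0.41 (limma, adjusted p = 0.792).

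The chemokines that draw neutrophils did not separate the groups. Of 9 measured 0 passed in limma and none was without overlap, and the median was -0.01. Cxcl1 stood at 10.36, 11.09, 10.75 and 10.30 in smoke and silica rats, and at 10.73, 10.70, 10.35 and 10.53 in smoke rats, a difference of 0.05 ± 0.26 (limma, adjusted p = 0.975). Cxcl2 stood at -0.05 ± 0.26 and Cxcl6 at 0.29 ± 0.13. Of 16 CC chemokines and receptors 0 passed in limma, with 1 higher and 1 lower without overlap. Each is 6.25% of the list, against 4.29% and 5.54% of all genes. The macrophage chemokine Ccl3 stood at 9.09, 9.12, 9.37 and 9.18 in smoke and silica rats, and at 9.06, 8.74, 8.61 and 8.91 in smoke rats, higher by 0.36 ± 0.16, and the lymphoid chemokine Ccl21 stood at -0.45 ± 0.27. The monocyte chemokine Ccl2 reached 10.02 in rat 604 and lay between 7.25 and 8.25 in its group mates, against 6.99 to 8.30 in smoke rats, and its difference of 0.72 ± 0.60 was 0.13 without rat 604.

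The inflammasome and interleukin-1 genes, the route most tied to silica, gave 0 of 16 past the test in limma and none without overlap, with a median of -0.01. Nlrp3 itself had no probe set with its symbol alone and was not analysed here. Il1b stood at 9.09, 9.37, 8.74 and 8.56 in smoke and silica rats, and at 11.16, 8.73, 9.39 and 9.17 in smoke rats, where rat 201 was again the highest. Its difference was -0.68 ± 0.36 (limma, adjusted p = 0.648). The ATP-gated channel P2rx7, which triggers the inflammasome, stood at 5.73, 6.13, 5.74 and 5.78 in smoke and silica rats, and at 6.44, 6.10, 6.39 and 6.14 in smoke rats, a difference of -0.42 ± 0.14 (limma, adjusted p = 0.433) with rat 603 just inside the smoke range. Among 16 acute phase and antimicrobial genes 0 passed in limma and 1 was lower without overlap (6.25%, against 5.54% of all genes). It was the peptidoglycan recognition protein Pglyrp1, at -0.82 ± 0.27. In this gene smoke rat 201 stood at 9.85 and the other smoke rats between 7.74 and 8.13. The groups only just missed each other, with rat 604 also at 7.74. Lcn2, at 0.87 ± 1.2, had 1 low smoke rat, rat 204 at 9.20, with the other 7 rats between 12.66 and 14.23.

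Clock genes were read because several of them swing with the hour of death, which the labels do not give. Of 22 measured 0 passed in limma and 6 lay above 0. Without overlap 3 were lower (13.6%, against 5.54% of all genes) and 1 higher (4.55%, against 4.29%). Nr1d1, the repressor REV-ERB alpha, stood at 8.55, 8.97, 7.75 and 8.16 in smoke and silica rats, and at 9.18, 9.18, 9.38 and 9.19 in smoke rats. The smoke rats lay close together and all above the smoke and silica rats, a difference of -0.87 ± 0.22 (limma, adjusted p = 0.200), or -0.67 without rat 604. The nuclear receptor Rora, which acts on the same elements as an activator, was higher without overlap, at 0.57, and Cry2 and Usp2 were the other lower ones, at -0.18 and -0.30. Per1 stood at -0.61 ± 0.20, Dbp at -0.53 ± 0.32, Per2 at -0.18 ± 0.22 and the repressor Bhlhe40 at 0.59 ± 0.20, none of them past the test.

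In a list of glucocorticoid and metallothionein response genes, none of 19 measured was without overlap, and 0 passed in limma. Klf15, which was lower without overlap, is not in this list. The receptor chaperone Fkbp5 stood at 8.91, 8.55, 8.95 and 8.36 in smoke and silica rats, and at 9.95, 9.43, 9.27 and 8.92 in smoke rats, a difference of -0.70 ± 0.24 (limma, adjusted p = 0.411). The phosphatase Dusp1 stood at -0.38 ± 0.19 and the median of the list was 0.04.

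The alveolar epithelium showed little difference. Of 23 surfactant and alveolar type 2 markers 0 passed in limma and none was without overlap, with a median of -0.01. Sfta2, a surfactant-associated protein, differed by 0.34 ± 0.11 and the lineage factor Nkx2-1 by 0.15 ± 0.09 (limma, adjusted p = 0.411 and 0.691). Ciliated and secretory airway markers leaned lower. Of 15 ciliated cell markers 0 passed in limma and 1 lay above 0, with a median of -0.34. Groups did not overlap in 1 with smoke and silica lower (6.67%, against 5.54% of all genes). That gene, the microtubule protein Tppp3, stood at 12.36, 12.35, 11.84 and 12.08 in smoke and silica rats, and at 12.40, 12.72, 12.71 and 12.49 in smoke rats, a difference of -0.42 ± 0.13 (limma, adjusted p = 0.334).

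The ciliated list mean was 9.17, 9.20, 8.92 and 8.21 in smoke and silica rats, and 8.94, 9.74, 9.46 and 8.56 in smoke rats. The groups overlapped, rat 605 was the lowest of its group in 13 of the 15 markers, and smoke rat 203 was the highest of its group in 14. With each rat left out the median lay between -0.52 and -0.11. Of 23 club and secretory cell markers 0 passed in limma, 3 lay above 0 and none was without overlap, with a median of -0.18, or -0.05 without rat 605 and -0.07 without smoke rat 203. Their largest difference was that of the nicotine-metabolizing cytochrome Cyp2a3, at 10.59, 10.14, 6.64 and 8.19 in smoke and silica rats, and 9.48, 10.83, 10.76 and 10.12 in smoke rats, or -1.40 ± 0.74, and the club cell secretoglobin Scgb1a1 stood at -0.04 ± 0.06. Of 15 basal and squamous airway markers 0 passed in limma, 7 lay above 0 and none was without overlap. Their median was -0.02, and lay between -0.28 and 0.19 with each rat left out. The basal cell keratin Krt5 stood at 8.69 in rat 604 and between 5.45 and 5.66 in its group mates, against 5.28, 8.19, 7.02 and 5.49 in smoke rats 201 to 205.

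Matrix genes gave 0 of 32 past the test in limma and 1 lower without overlap (3.12%, against 5.54% of all genes), with a median of -0.03. The growth factor Tgfb1, a driver of fibrosis, was that gene, at 8.67, 8.54, 8.46 and 8.86 in smoke and silica rats, and 8.98, 8.91, 9.01 and 9.01 in smoke rats, a difference of -0.34 ± 0.12 (limma, adjusted p = 0.442). The fibrillar collagen Col1a1 stood at -0.03 ± 0.40. Without rat 604 the median of the list was -0.16, with 6 members lower without overlap, against 8.6% of all genes, and with the other rats left out in turn it lay between -0.07 and 0.07.

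The enzymes that smoke is known to induce were compared to see whether silica moved them further. Of 40 NRF2 and antioxidant genes 0 passed in limma, with a median of 0.05. Without overlap 1 was higher (the catalase Cat, 0.24) and 1 lower (the plasma glutathione peroxidase Gpx3). Each is 2.5% of the list, against 4.29% and 5.54% of all genes. Without rat 604 the median was -0.03 and 15 lay above 0, in place of 26. Without smoke rat 203 it was 0.11. Gpx3 stood at 12.57, 12.69, 12.47 and 12.55 in smoke and silica rats, and at 13.01, 12.93, 12.97 and 12.89 in smoke rats, a difference of -0.38 ± 0.12 (limma, adjusted p = 0.365). The extracellular superoxide dismutase Sod3 stood at -0.43 ± 0.12 with rat 603 inside the smoke range. Nqo1 and Hmox1 stood at 0.14 ± 0.25 and 0.18 ± 0.23, and Cyp1a1, the marker of the aryl hydrocarbon receptor, at -0.77 ± 0.32 (limma, adjusted p = 0.544), with 8.32, 7.5, 7.63 and 7.16 in smoke and silica rats and 9.04, 8.35, 8.35 and 7.94 in smoke rats. None of the 9 genes of the aryl hydrocarbon receptor list was without overlap or passed.

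Cell cycle genes were higher on the median, and this rested on rat 604. Of 41 proliferation genes 0 passed in limma and 36 lay above 0, with a median of 0.22. Only the helicase subunit Mcm4 was higher without overlap (2.44%, against 4.29% of all genes). The list mean was 7.10, 7.30, 8.16 and 7.12 in smoke and silica rats, and 7.06, 7.47, 7.16 and 6.98 in smoke rats. Rat 604 was the highest of its group in 39 of the 41 genes and smoke rat 203 in 35. Without rat 604 the median was 0.03, with 23 genes above 0. It was 0.35 without smoke rat 203 and 0.37 without rat 602. Mki67, the common marker of dividing cells, stood at 6.63, 6.88, 8.90 and 6.34 in smoke and silica rats, and at 6.16, 7.06, 6.28 and 6.26 in smoke rats.

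The D-type cyclin Ccnd2 did not follow that rat. It stood at 10.56, 10.47, 10.32 and 10.26 in smoke and silica rats, and at 9.64, 9.76, 9.64 and 9.38 in smoke rats, the groups well apart. Its difference was 0.80 ± 0.19 (limma, adjusted p = 0.200), and 0.82 without rat 604. Of 25 genes of cell cycle control and the p53 response 0 passed in limma, Ccnd2 being higher and Ccnd3 (-0.20 ± 0.10) lower without overlap. Each is 4% of the list, against 4.29% and 5.54% of all genes.

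Of 25 cholesterol and fatty acid synthesis genes 0 passed in limma. Only the phosphomevalonate kinase Pmvk, at 0.17, was higher without overlap (4%, against 4.29% of all genes). The median of the list was 0.10, or -0.04 without rat 604 and 0.17 without smoke rat 203. In rat 604 the sterol demethylase Cyp51 stood at 10.31, with 9.25 to 9.41 in its group mates and 8.96 to 9.63 in smoke rats. Of 25 interferon-stimulated genes 0 passed in limma and 16 lay above 0, with a median of 0.20. Ifi44 alone was higher without overlap (4%, against 4.29% of all genes). The median was 0.10 without rat 605 and 0.13 without smoke rat 204, and 4 were higher without overlap without rat 603 (against 5.82% of all genes). Ifi44 stood at 9.01, 8.72, 8.76 and 8.88 in smoke and silica rats, and at 8.14, 8.68, 8.38 and 8.64 in smoke rats. The list mean lay between 8.88 and 9.22 in smoke and silica rats and between 8.61 and 9.14 in smoke rats, so the groups overlapped. Where a list moved with rat 604, 203 or 201 in these accounts, the part of that rat's tissue content in the value was not tested.

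**Figure D3:**
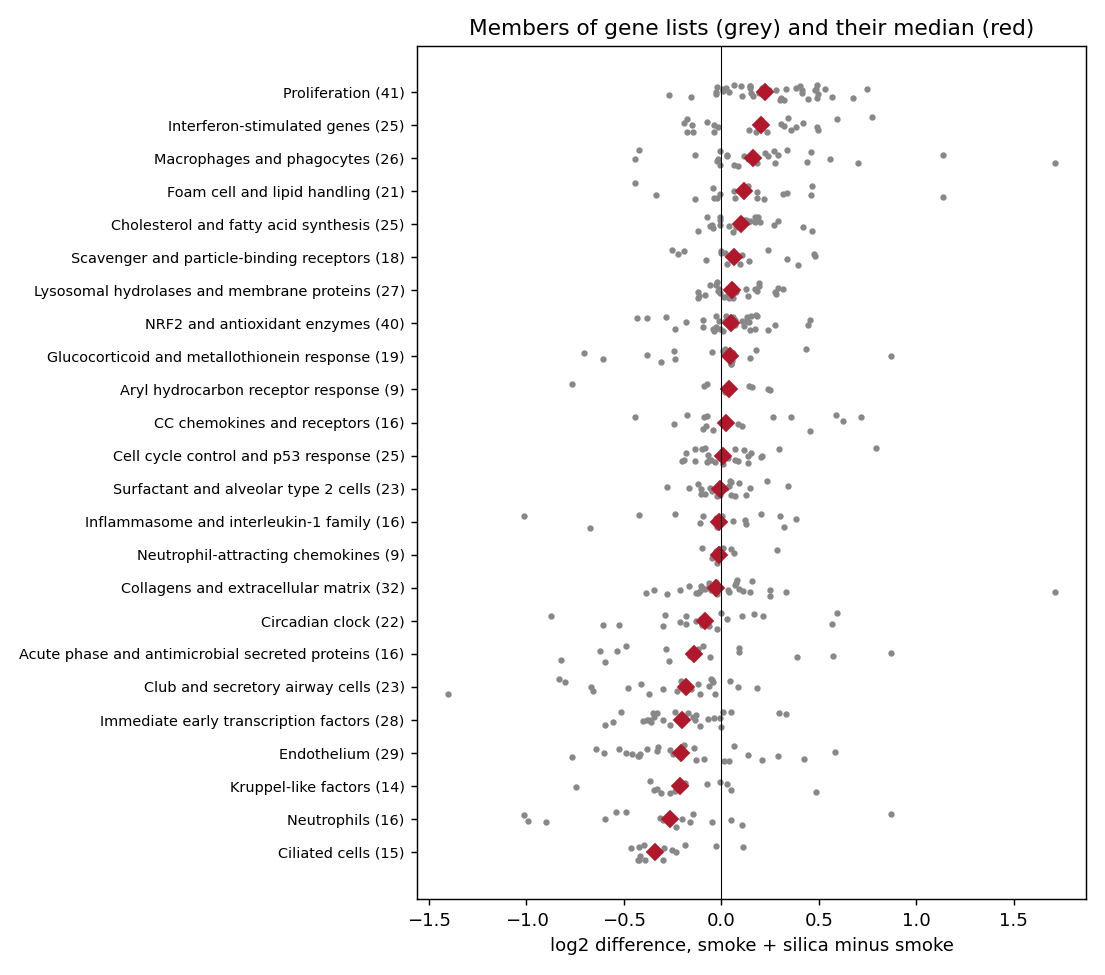
Log2 difference, smoke and silica minus smoke, of each measured member (grey) and the median (red) of 24 gene lists, with the number of measured members in brackets. Medians run from 0.22 for proliferation to -0.34 for ciliated cells, beside a median of -0.01 over all genes.

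**Figure D4:**
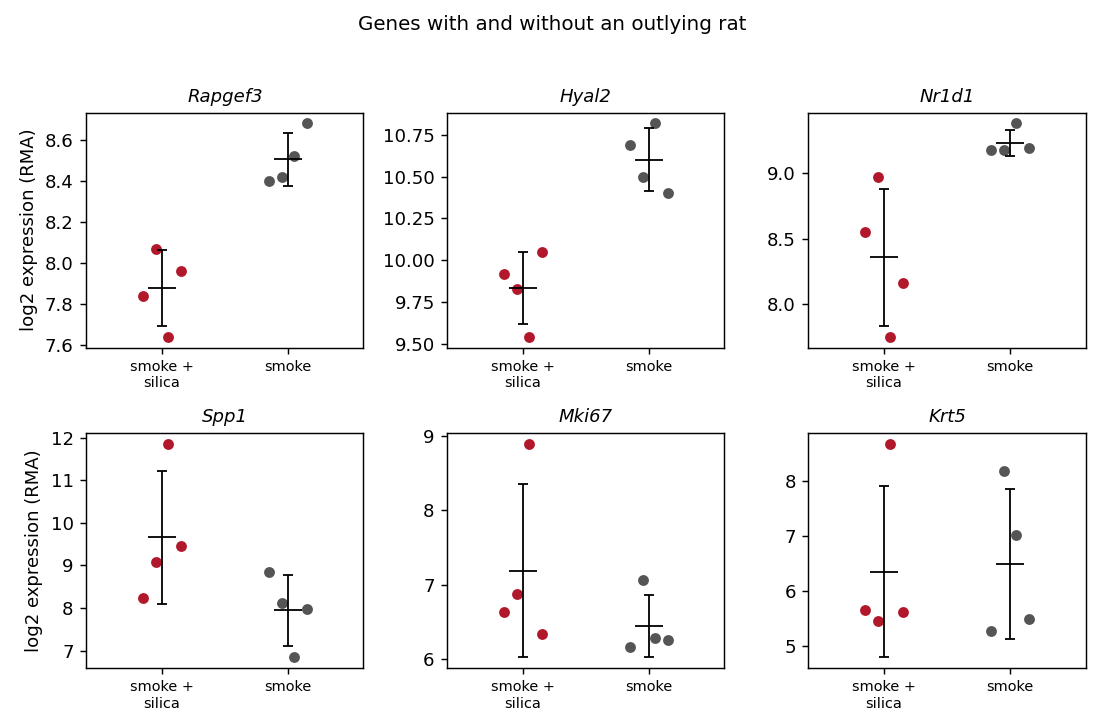
Log2 expression of 6 genes in each smoke and silica rat and each smoke rat (points), with the mean and SD of 4 rats (bars). Rapgef3, Hyal2 and Nr1d1 show groups that do not overlap, while Spp1, Mki67 and Krt5 show rat 604 far above its group mates, at 11.86, 8.90 and 8.69.

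Silica without smoke was read as the background of the same exposure, in 4 silica rats and 4 air rats that are other animals than the 8 above. In it 20 genes passed, all higher (0.141% of the genes tested). Groups did not overlap in 3.24% of all genes with silica higher, and in all 20 of these, from which nothing is read because passing chose them. The count was 8 without silica rat 501 or air rat 105, 10 without silica rat 503 and 9 without air rat 104, whose heart and striated muscle markers had a mean of 8.48, against 5.93 to 6.13 in the other air rats. Under smoke 2 of these 20 passed, Cped1 and Arid5b, 7 were higher without overlap against 4.29% of all genes, none was lower without overlap, 10 had an unadjusted p under 0.05, and 18 lay above 0. The median difference of the 20 was 0.31 under smoke and 0.77 without it. These 20 were chosen on the values without smoke, so the second median is not a test and lies high by that choice.

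Cxcl1 shows one end. It stood at 10.79, 10.04, 9.98 and 9.99 in silica lungs, against 8.54, 8.66, 8.21 and 8.45 in air lungs, a rise of 1.74 ± 0.26 (limma, adjusted p = 0.0067), while both smoke groups stood at 10.30 or above, with means of 10.63 ± 0.37 with silica and 10.58 ± 0.17 without (SD, n = 4 each). The smoke lungs without silica thus already lay at or above most silica lungs. C3, the central complement component, averaged 12.79 ± 0.45 in smoke and silica lungs and 12.89 ± 0.11 in smoke lungs, and 12.71 ± 0.29 in silica lungs and 11.46 ± 0.39 in air lungs (SD, n = 4 each). The growth factor Csf2 and the lysosomal cholesterol carrier Npc2 stood at 0.01 ± 0.12 and 0.04 ± 0.08 under smoke, and rose by 0.66 ± 0.12 and 0.40 ± 0.08 without it.

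The other end held Cped1, Arid5b, Nfix and Kdsr, an enzyme of sphingolipid synthesis, with 1.08 ± 0.13, 0.59 ± 0.08, 0.66 ± 0.14 and 0.39 ± 0.10 under smoke and rises of 0.76 ± 0.13, 0.56 ± 0.08, 0.78 ± 0.14 and 0.52 ± 0.10 without it. Bhlhe40, a repressor of the clock and of cytokine genes, lay between. It stood at 8.98, 8.26, 8.88 and 9.08 in smoke and silica rats, against 8.14, 8.14, 8.33 and 8.22 in smoke rats, and at 9.31, 8.94, 9.02 and 8.70 in silica rats, against 7.23, 7.23, 7.21 and 7.39 in air rats. Rat 603 of the smoke and silica group lay at the level of the smoke rats.

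In 16 of the 20 genes the mean of smoke lungs was above the mean of air lungs, with a median difference of 0.37 between those means, though the choice of the genes favoured low air values. The test of the difference itself, the silica effect under smoke minus the silica effect without it, passed in 0 of 14217 genes in limma (0%; smallest adjusted p = 1.00), with 318 at an unadjusted p under 0.05. Among the 20 genes it was at an unadjusted p under 0.05 in 13, with a median of -0.53. The silica and air rats that chose the 20 also enter that difference, so this count is a description. For Cxcl1 the difference was -1.69 ± 0.37, for C3 -1.35 ± 0.28 and for Bhlhe40 -1.14 ± 0.28 (limma, adjusted p = 1.00 for each). Rapgef3 had -0.58 ± 0.16 in the opposite arrangement, lower under smoke with silica and near 0 without smoke (limma, adjusted p = 1.00). Rapgef3 was chosen on its value under smoke, which enters that difference, so this value is a description too.

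**Figure D5:**
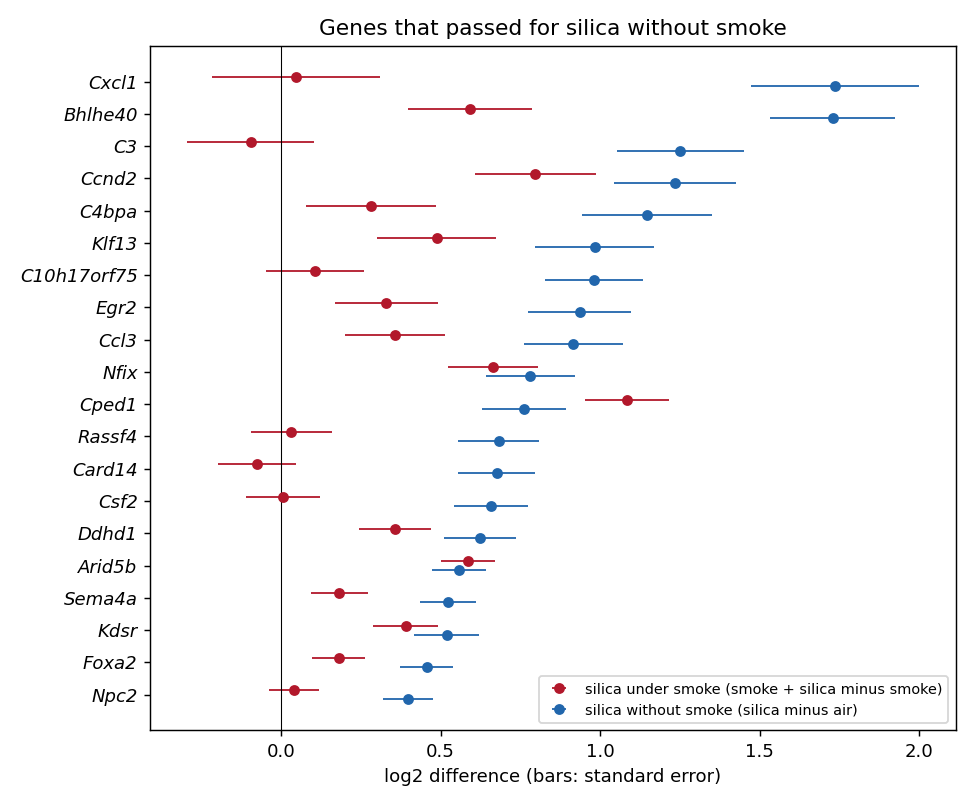
Log2 difference with its standard error (bars) for the 20 genes that passed for silica without smoke, under smoke (red, smoke and silica minus smoke) and without smoke (blue, silica minus air), ordered by the blue value. The red points run from -0.09 in C3 to 1.08 in Cped1, and the difference between red and blue passed in none of the genes.

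Silica was also set against Iraqi sand at the same particle concentration under the same smoke. No gene passed between these groups in limma (0% of those tested; smallest adjusted p = 0.0976, for Kctd4 at 0.68 ± 0.12), and 1 did without rat 605 or sand rat 404, with 989 genes at an unadjusted p under 0.05. Groups did not overlap in 486 genes with smoke and silica higher (3.42%) and in 469 with it lower (3.3%). Cped1 differed by 0.30 ± 0.13, Arid5b by 0.19 ± 0.08 and Rapgef3 by -0.44 ± 0.11 between smoke and silica and smoke and sand (limma, adjusted p = 0.677, 0.671 and 0.440). These genes were chosen on silica against smoke, which uses the same smoke and silica rats, so their values here are descriptions.

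Sand against air under smoke uses the same 4 smoke rats, so its values stand beside those of silica without a test between them. In it 2 genes passed, both higher (0.0141% of the genes tested), Cped1 by 0.79 ± 0.13 and Rab27b by 0.62 ± 0.10 (limma, adjusted p = 0.0380 for both). The count was 7 without sand rat 405 and 0 without any other of the 8 rats. Rab27b stood at 6.72, 6.55, 6.51 and 6.69 in smoke and sand rats, above all 4 smoke rats. Arid5b stood at 0.39 ± 0.08 for sand and Fam185a at 0.63 for sand and 0.59 for silica. Mtx2, Eci3 and Kctd4 stood at 0.07, 0.03 and -0.13 for sand, against 0.35, 0.38 and 0.56 for silica. Mtx2, Eci3, Kctd4 and Fam185a were chosen on the silica values, which lie high by that choice.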

How the data were processed

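Right caudal lobe RNA of 24 rats was hybridised to Affymetrix rat expression arrays, 1 colour and 1 array per rat. The authors deposited log2 values made with RMA, per the submitters' processing notes, whose version is not given in the sources used here. RMA gives all arrays nearly 1 distribution, so a shift of most genes together cannot be seen, and array medians lay between 7.26 and 7.32. The table holds 31099 probe sets, of which 57 controls were left out, and 20826 of the others had exactly 1 gene symbol in GEO's platform annotation, 436 several and 9780 none. Genes with several probe sets (4525 of 14217) were read through the one brightest over the 24 arrays, and 14167 genes were found in the RefSeq table.

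A linear model of 6 group means over the 24 arrays was estimated by lmFit and eBayes of limma (version 3.58.1, under R version 4.3.3), leaving 18 residual degrees of freedom, with Benjamini-Hochberg adjustment over 14217 genes and a threshold of 0.05. The procedure was tested on simulated data. The rats are separate animals, so p-values measure the spread between rats. Each rat has a number of its own, and the labels give no batch, date or hour of death, and no RNA integrity number for 5 arrays.

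The text names every gene that passed, filled to 10 per direction by the smallest p among genes whose groups did not overlap, a fixed set of genes, the 3 members of largest moderated t in each of 24 lists, the genes that passed for silica without smoke, and Ager. Other genes, namely list members without overlap and Cd68, Gpnmb, Lgals3, Ctsd and Klf2, were chosen after their values were seen. The members and the 42 lists (1006 entries, 866 measured) were chosen with earlier results of these data known. Alternatives were another variance model, filter, summary of probe sets, normalization, threshold on the fold and set of arrays, quality weights, the RNA integrity number as a covariate, and each rat left out.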

Additional observations from a re-analysis of the deposited data

Results flagged for a closer look

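In 20 of 228 groups of 4 rats tested, 1 rat stood off the other 3 by a gap that, as a share of the group's whole range, was above Dixon's 95% critical value for 4 values, which chance passes in about 1 in 20 groups. Of these, 7 were smoke rat 201, 3 smoke rat 203, 3 smoke rat 204, 1 smoke rat 205, 1 rat 602, 1 rat 603 and 4 rat 604. In rat 604 the keratin Krt5 stood at 8.69 (its mates at 5.45 to 5.66), Rrm1 at 8.92 (8.07 to 8.20), Mcm4 at 8.74 (7.82 to 7.94) and Cyp51 at 10.31 (9.25 to 9.41). Itgax stood at 9.19 in rat 602 (10.08 to 10.19 in its mates), and P2rx7 at 6.13 in rat 603 (5.73 to 5.78). In smoke rat 201 the values were 6.31 for Fam185a (5.99 to 6.02 in its mates), 13.31 for S100a9 (11.42 to 11.62), 12.28 for Cldn5 (12.40 to 12.42), 10.63 for Junb (9.26 to 9.44), 9.12 for Fcgr1a (8.06 to 8.19), 10.47 for Il1r2 (7.34 to 7.67) and 7.99 for Klf13 (7.58 to 7.64). In smoke rat 203 Scgb1a1 stood at 14.78 (14.89 to 14.91), Mki67 at 7.06 (6.16 to 6.28) and Ccna2 at 6.19 (5.24 to 5.37). In smoke rat 204 Nr1d1 stood at 9.38 (9.18 to 9.19), Lcn2 at 9.2 (13.88 to 14.11) and Csf2 at 8.03 (8.15 to 8.17). Lbp stood at 8.83 in smoke rat 205 (9.98 to 10.08). The tissue content of these rats and its part in the values were not tested.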

How the results depend on the processing

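No paired analysis was possible because each rat has its own number and no number is shared between groups. For silica under smoke 2 genes passed, and 5 did with probe sets averaged per gene, 9 with the 8 arrays alone, 5 with the 7 arrays without rat 604, 342 with array quality weights, 1 against a 1.2-fold change, 66 without rat 302, 14 without rats 302, 104 and 604, 10 without rats 302 and 604, and 0 on the 19 arrays with an RNA integrity number, with or without that number as a covariate. Among genes at or above the median level 2 passed for silica under smoke, 1 higher and 1 lower. Cped1 was the higher one, and Arid5b lay below that level and was not tested there. For the difference of the silica effects 0 passed, and 1 without rats 302, 104 and 604. For silica against sand under smoke 0 passed, and 1 with the 8 arrays alone, 11 with weights and 1 with quantile normalization. For silica without smoke 20 passed, and 2 with the 8 arrays alone, 80 with weights, 1 against a 1.2-fold change, 0 on the 19 arrays in both fits, 42 without rat 302 and 31 without rats 302, 104 and 604. For sand under smoke 2 passed, and 1 among genes at or above the median level, 17 with weights, 5 without rat 302, 6 without rats 302, 104 and 604, and 0 with quantile normalization, against a 1.2-fold change and on the 19 arrays in both fits. With each rat left out the counts were 2 to 3 for silica under smoke, 0 to 0 for the difference, 0 to 1 for silica against sand, 8 to 20 for silica without smoke and 0 to 7 for sand under smoke. Of 114 named genes 99 kept their sign in every setting. With weights the sign turned for Cxcl2 (0.0782), Scgb1a1 (0.00681), Nqo1 (-0.0917) and C3 (0.0758). On the 19 arrays it turned for Lcn2 (-0.38 with the covariate, -0.29 without), Col1a1 (0.0664 and 0.15), Krt5 (0.16 and 0.27) and Rassf4 (-0.0106 and -0.0558), and without the covariate for Cxcl3 (-0.00518) and Csf2 (-0.0162). With the mean of probe sets it turned for Col1a1 (0.085), Sftpb (0.10) and Csf2 (-0.0332), and with centring and quantile normalization for Sftpc (0.00949 and 0.0101). In the 3 settings without rat 604 it turned for Scgb1a1 (0.0219) and Nqo1 (-0.20). With each rat left out it turned for Cxcl1 (-0.11 to 0.16), Cxcl2 (-0.18 to 0.0803), Lcn2 (-0.32 to 1.31), Sftpc (-0.0234 to 0.000867), Scgb1a1 (-0.0778 to 0.0219), Col1a1 (-0.39 to 0.23), Krt5 (-0.91 to 0.43), Nqo1 (-0.20 to 0.38), C10h17orf75 (-0.0251 to 0.17), C3 (-0.24 to 0.11), Csf2 (-0.0641 to 0.0682), Rassf4 (-0.0243 to 0.12) and Ager (-0.10 to 0.00603). The 19 arrays without the covariate, the settings without rats 302 and 604, the 7 arrays, the list values with a rat left out and all alternatives of sand under smoke were chosen after seeing the data. Fewer arrays enter the settings on 7, 8 and 19 arrays, and the cause of a changed count was not tested in any setting. With 4 arrays a group, small differences could not be told from the spread between rats.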
